A study of Mus musculus with 8 samples.

Results

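A group of 7 genes was followed through the single-cell transcriptomes of wild-type (WT) and Setd1a+/- mouse brain: the H3K4 demethylases Kdm1a, Kdm1b, Kdm5a, Kdm5b and Kdm5c, and Rcor1 and Phf21a, which encode partners of LSD1. They were chosen by symbol, and each of the 7 was found among the 31053 genes of the count matrices. Their levels were read in 23687 annotated cells, 8997 from the prefrontal cortex (PFC) and 14690 from the striatum. All 7 were detected in both tissues. Phf21a was lower in the mean of PFC neurons than in that of PFC non-neuronal types. Kdm1b was lower in the mean of D1, D2 and interneurons than in that of non-neuronal cells of the striatum. In the same comparisons, 58.2% of all genes tested passed in the PFC and 49.5% in the striatum, in either direction. Rcor1 had its highest mean level in endothelial cells of both tissues. No member passed the test for a difference between Setd1a+/- and WT in any cell type where its counts allowed one. Over all genes, 0 of 51145 such tests passed in PFC types and 4 of 73479 in striatal types.

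Methylation of lysine 4 of histone H3 (H3K4) marks active promoters and enhancers, and SETD1A is one of the enzymes that write it. Demethylases of separate families erase it. KDM1A (LSD1) and KDM1B (LSD2) are flavin-dependent amine oxidases that act on mono- and dimethylated lysine, whereas the KDM5 proteins are Jumonji-domain enzymes that act on the di- and trimethylated forms. RCOR1 (CoREST) is the scaffold that joins LSD1 to histone deacetylases and lets it act on nucleosomes, and PHF21A (BHC80) is a plant homeodomain finger protein of the same complex that binds unmethylated H3K4. This complex is known for repressing neuronal genes outside the nervous system together with the factor REST, and KDM5C is encoded on the X chromosome with a close relative, KDM5D, on the Y chromosome.

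The 8 libraries came from male C57BL/6N mice, with 2 WT and 2 Setd1a+/- libraries from each tissue. The labels give an age of 8 to 10 weeks, although the methods state another age. Each library pooled the cells of 2 mice, so that a library and not a mouse is the unit of replication. The Setd1a+/- mice carried 1 allele with a Cas9-induced frameshift ahead of the SET domain in the germline, so that all cell types carried it. The striatal samples are called nucleus accumbens in the labels, whereas the design text names dorsal and ventral striatum. The PFC cells were annotated as excitatory neurons (EN), interneurons (IN), astrocytes (Astro), endothelial cells (Endo), microglia (Micro), oligodendrocyte progenitor cells (OPC), newly formed oligodendrocytes (NFO) and oligodendrocytes (Oligo). The striatal cells were annotated as D1 and D2 medium spiny neurons (MSN), IN, neural stem cells and neuroblasts (NB) and the same 6 non-neuronal types.

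The libraries held 5999666 to 13521114 unique molecular identifiers (UMIs, counted RNA molecules) over annotated cells, with medians of 2302.5 to 3042 UMIs per cell. Of the markers checked, 24 of 24 in the PFC and 28 of 30 in the striatum were highest in their own type, as were 5 of 7 markers of the excitatory subtypes. The exceptions were Gad2 and Slc32a1, 2 of the 3 markers of striatal IN, which were higher in D1 MSN, and Cux2 and Etv1, which were highest in SL-Myh7 and DL-Tshz2 and not in SL-Cux2 and DL-Etv1. Any pair of libraries shared at most 24 cell barcodes and at most 0.877% of those of the smaller library, the latter in a pair that shared 23. Levels are given as CPM, the summed UMIs of a gene per 1000000 UMIs of all genes in the same cells of a library. As UMIs were counted near the 3′ end and a level per length was not computed, levels are compared between cell types and not between genes.

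The 7 genes are annotated as protein-coding and lie on different chromosomes (GRCm38 build). They were found with Kdm1a at chr4:136550540-136602723 on the minus strand, and on the plus strand Kdm1b at chr13:47043499-47085279, Kdm5a at chr6:120364124-120444574, Kdm5b at chr1:134560171-134635285, Kdm5c at chrX:152233020-152274535, Rcor1 at chr12:111039351-111115901 and Phf21a at chr2:92093117-92364666.

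Setd1a itself was read first, as the check of the genotype. Over all PFC cells it stood at 8.45 and 11.2 CPM for the WT libraries against 5.59 and 9.33 CPM for the Setd1a+/- libraries, so the groups overlapped, although the Setd1a+/- library was the lower of both same-numbered pairs. Over all striatal cells it stood at 13.4 and 15.2 CPM in WT against 9.16 and 12.5 CPM in Setd1a+/-, with no overlap and again the lower value in both pairs. The log2 fold change was -0.39 (SE 0.43) in the PFC and -0.38 (SE 0.28) in the striatum, and neither passed the edgeR test (adjusted p above 0.99 in both). With the replicate number as a block the values were -0.42 (SE 0.32) and -0.39 (SE 0.27), and the calls did not change. All 11 genotype fits that included Setd1a gave a negative value, over cell types, subtypes and sums that share their libraries. In droplets of 10 to 100 UMIs, a measure of free RNA, Setd1a stood at a mean of 16.3 CPM against 10.6 CPM in the cells of the same libraries, with the cells higher in 2 of 8. The part of free RNA in the cell values was not tested. A frameshift need not lower the UMI count near the 3′ end, so these values are a weak check of the labels.

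Kdm1a, the gene of LSD1, was even among PFC excitatory neurons of the 4 libraries and uneven in PFC types with few UMIs. Its level in EN was 29.4 and 30.5 CPM in WT against 28.0 and 28.1 CPM in Setd1a+/-, a mean of 29.0 ± 1.19 CPM (SD, n = 4) over 560 UMIs. EN held the highest mean of the 8 PFC types, followed by OPC at 26.7 ± 5.25 CPM (SD, n = 4), and Micro held the lowest, 7.98 ± 9.66 CPM over 11 UMIs. The spans of neighbouring types in this order overlapped at every step. In the striatum the mean ran from 25.7 ± 6.54 CPM in NB through 22.8 ± 2.76 in D1 and 18.6 ± 3.55 in D2 to 12.4 ± 9.66 in NFO, again with overlap at every step.

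Kdm1b, the gene of LSD2, rested on few UMIs in most types and had the widest span of the 7 over the striatal types. In striatal D2 MSN it was read at 0.835 and 1.94 CPM in WT against 1.56 and 3.12 CPM in Setd1a+/-, a mean of 1.86 ± 0.955 CPM (SD, n = 4). In striatal NB it was read at 23.8 and 5.87 CPM in WT against 10.0 and 24.5 CPM in Setd1a+/-, a mean of 16.0 ± 9.49 CPM that rested on 17 UMIs. The 4 NB libraries therefore all lay above the 4 D2 libraries, and the means were 8.60-fold apart. These types were picked as the top and bottom of 10. The share of all genes without overlap between types was not computed, here or for the genes below. In the PFC its highest mean was in OPC, at 13.5 and 10.4 CPM in WT against 13.8 and 10.7 CPM in Setd1a+/-, where all 4 libraries lay above those of EN (2.65 to 5.56 CPM). It was at 0 UMIs in 8 of 72 combinations of library and cell type, which at these depths does not show absence.

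Kdm5a was found in every one of the 72 combinations. In PFC Endo it was read at 85.2 and 45.1 CPM in WT against 59.3 and 50.7 CPM in Setd1a+/-, a mean of 60.1 ± 17.7 CPM (SD, n = 4), the highest of that tissue. PFC Oligo followed at 72.5 and 53.0 CPM in WT against 42.1 and 38.6 CPM in Setd1a+/-, a mean of 51.5 ± 15.3 CPM in which both WT libraries lay above both Setd1a+/- libraries, as they did for 17.1% of all genes tested in that type. Across the PFC types its means differed by 2.00-fold at most, and none of the neighbours in the order were separated. In the striatum NB led with 63.5 ± 13.1 CPM, ahead of Endo with 49.5 ± 5.95 CPM, and NFO was lowest with 22.3 ± 9.09 CPM over 12 UMIs.

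Kdm5b had higher means in neurons, endothelial cells and astrocytes than in the later oligodendrocyte types. In striatal D1 MSN it was read at 44.1 and 40.8 CPM in WT against 40.0 and 42.2 CPM in Setd1a+/-, a mean of 41.8 ± 1.81 CPM (SD, n = 4). In striatal Oligo it was read at 12.8 and 15.2 CPM in WT against 19.7 and 12.6 CPM in Setd1a+/-, a mean of 15.1 ± 3.31 CPM. Every D1 library thus lay above every Oligo library. In the PFC the means in Endo (37.0 ± 1.78 CPM), EN (36.7 ± 6.23 CPM) and OPC (32.7 ± 4.31 CPM) lay close together, and the drop from OPC to Oligo (19.0 ± 6.86 CPM) was the step in its order at which the libraries did not overlap. That step depended on the scaling. In the fits given below, Kdm5b was called there with library size alone and did not pass in the main fit. The top PFC mean, 37.6 ± 23.7 CPM in Astro, rested on 38 UMIs that were spread unevenly over the libraries.

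Kdm5c had the flattest profile of the 7. Its means differed by 1.83-fold over the PFC types and by 2.02-fold over the striatal types, with OPC highest in both tissues (24.9 ± 8.75 and 22.9 ± 5.59 CPM, SD, n = 4) and Micro lowest (13.6 and 11.3 CPM). In PFC EN it was read at 27.0 and 17.4 CPM in WT against 13.9 and 18.2 CPM in Setd1a+/-, so the groups overlapped. Its Y-linked relative Kdm5d was counted separately, at 14.8 to 21.7 CPM over all cells of a library. As the transcripts are similar in sequence, how reads were split between the 2 genes is uncertain.

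Of the LSD1 partners, Rcor1 had its top mean in endothelial cells of both tissues. In PFC Endo it was read at 39.1 and 21.2 CPM in WT against 29.3 and 19.3 CPM in Setd1a+/-, a mean of 27.2 ± 9.01 CPM (SD, n = 4), and all 4 values exceeded those of OPC, the next type at 12.9 ± 3.10 CPM. In striatal Endo it was read at 18.7 and 17.1 CPM in WT against 25.9 and 38.2 CPM in Setd1a+/-, a mean of 25.0 ± 9.62 CPM, which overlapped NB at 15.9 ± 5.68 CPM. The lowest means were 4.65 ± 3.40 CPM in PFC Oligo and 4.15 CPM in striatal NFO, the latter over 3 UMIs, so that the spans were 5.85-fold and 6.02-fold. In neurons Rcor1 stood at 11.7 ± 2.79 CPM in EN, 8.69 ± 3.12 CPM in D1 and 7.65 ± 2.42 CPM in D2.

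Phf21a followed another order. In PFC Endo it was read at 57.1 and 66.3 CPM in WT against 51.8 and 53.1 CPM in Setd1a+/-, a mean of 57.1 ± 6.53 CPM (SD, n = 4), ahead of OPC at 47.7 ± 13.4 and Astro at 41.4 ± 11.1 CPM. The PFC neurons were lowest, with EN at 29.9 and 22.8 CPM in WT against 28.7 and 16.7 CPM in Setd1a+/- and with IN at a mean of 20.3 ± 7.90 CPM. All 4 Endo libraries lay above all EN and IN libraries, whereas those of Oligo (27.3 ± 4.53 CPM) overlapped those of EN (24.5 ± 6.05 CPM). In the striatum NB was read at 61.1 and 64.6 CPM in WT against 58.5 and 89.7 CPM in Setd1a+/-, above all 4 libraries of Endo (40.2 to 54.6 CPM), the next type in the order. The striatal Astro mean of 69.6 ± 39.4 CPM was higher still, but it rested on 1 Setd1a+/- library at 127 CPM that held 31 astrocytes.

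**Figure D1:**
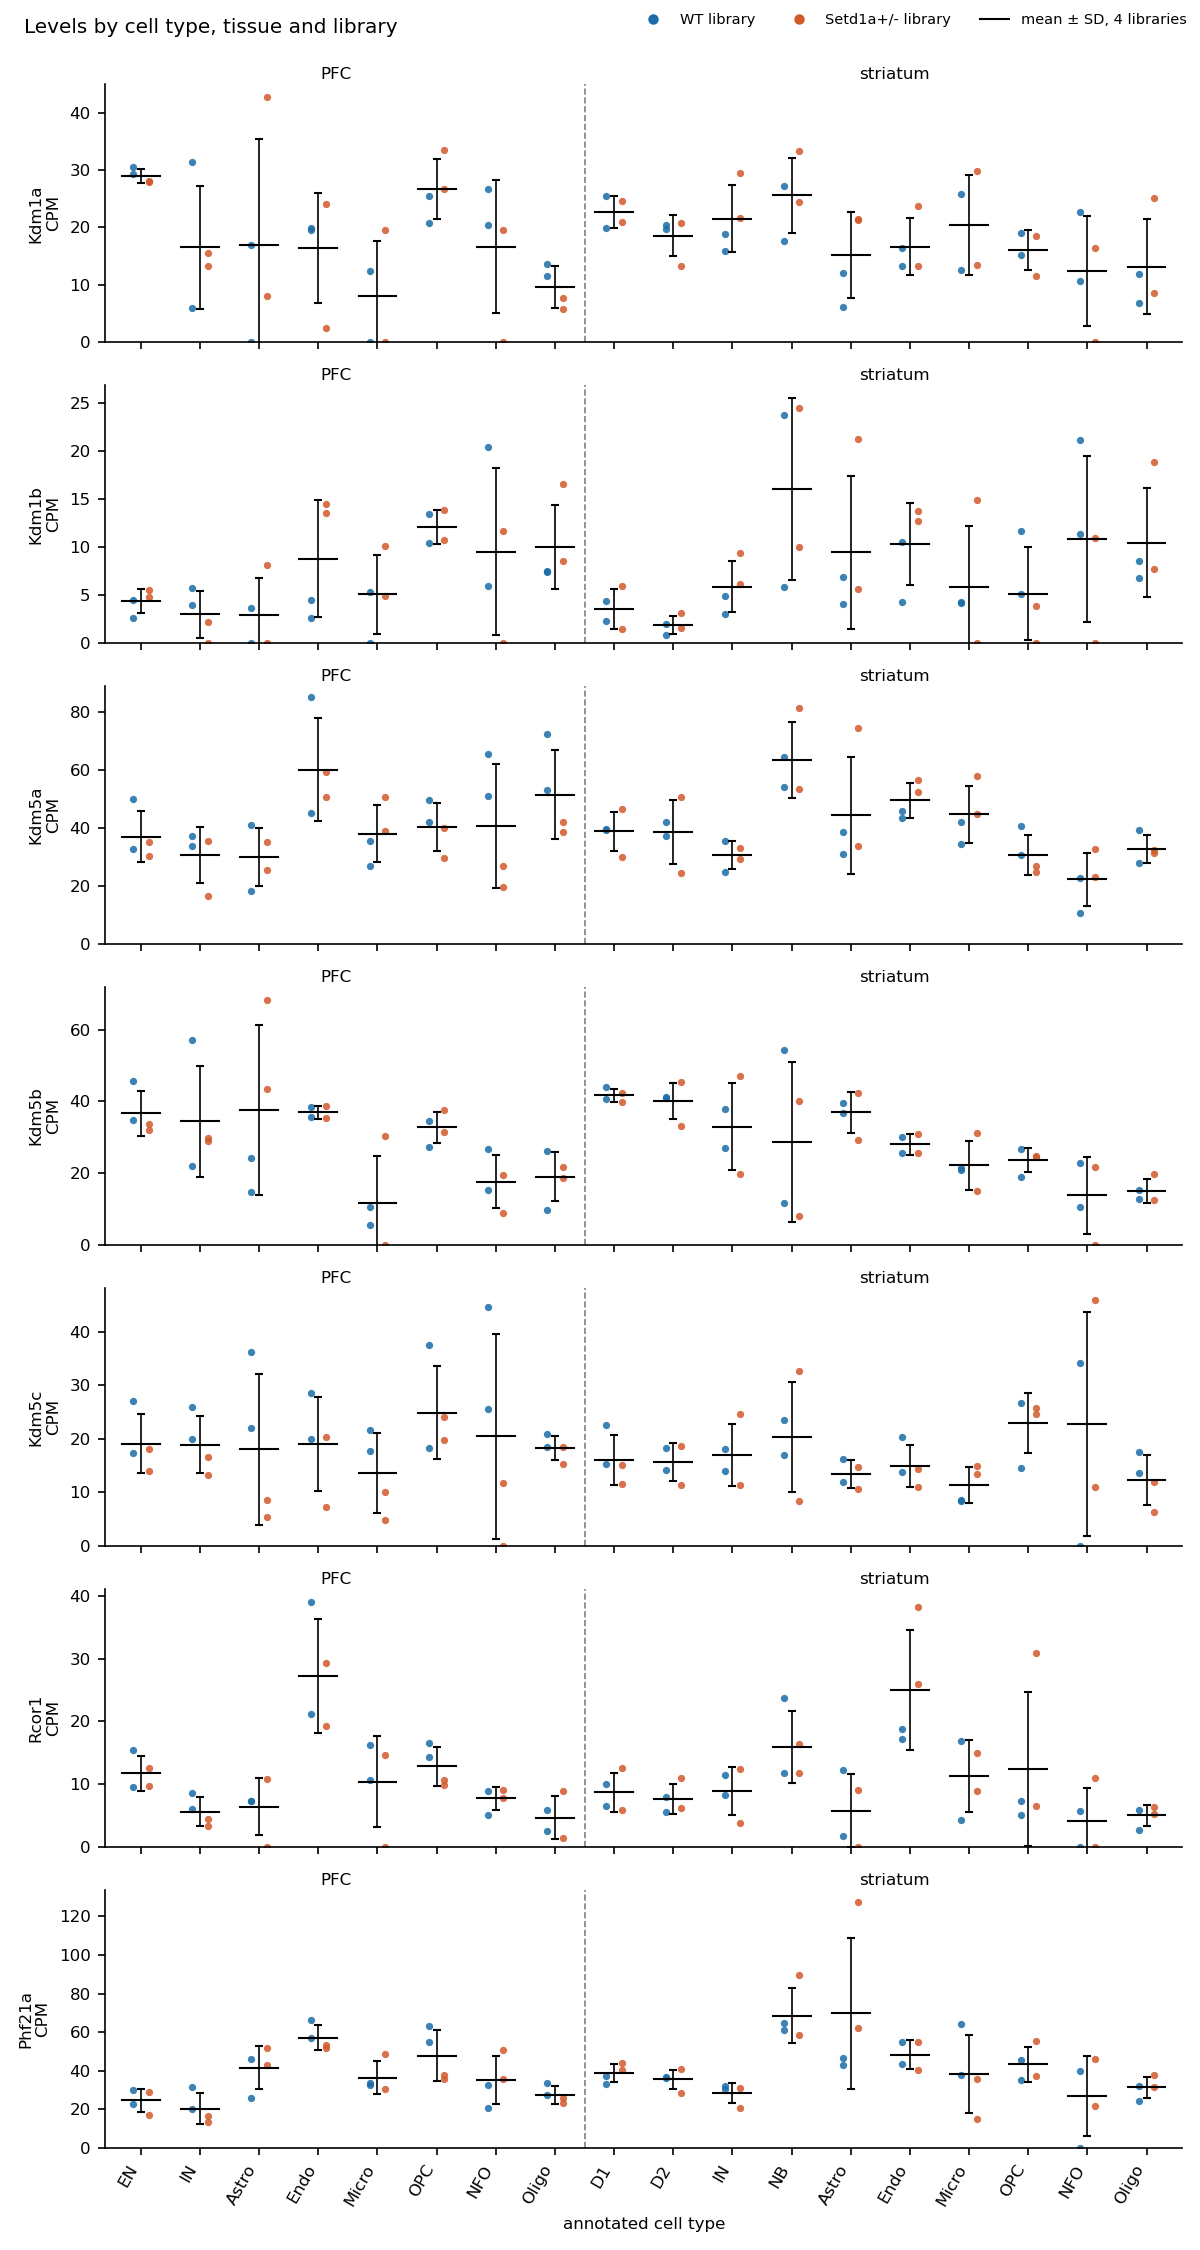
Level of each gene in CPM (vertical axis, scaled per gene) in the annotated cell types of the PFC and the striatum (horizontal axis). Points are libraries, blue for WT and orange for Setd1a+/-, and black lines give the mean and SD of 4 libraries, cut at 0; Rcor1 stands highest in Endo of both tissues (27.2 and 25.0 CPM) and Kdm1b lowest in striatal D2 (1.86 CPM).

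Contrasts between some of the cell types were then fitted over all genes. The library was a block, so each contrast was set against how it varied from library to library. No contrast set Endo, Astro, Micro or NB alone against another type, or D1 against Oligo. The Rcor1 level in Endo, the Kdm1b gap between NB and D2 and the Kdm5b gap between D1 and Oligo were therefore not tested. The types had been clustered by the authors on the same cells and genes, so these tests describe the annotated groups. A gene was called at an adjusted p under 0.05 and a fold change above 1.5. In the PFC, 5 of the 7 members had enough counts to be tested, and 4 of their 25 tests over 5 contrasts (16.0%) were called, against 37.2% over all genes. In the striatum all 7 were tested, and 4 of 42 tests over 6 contrasts (9.52%) were called, against 27.3% over all genes.

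Phf21a was lower in PFC neurons (EN and IN) than in the mean of the 6 non-neuronal types, by a log2 fold change of -1.05 (SE 0.16, edgeR adjusted p = 8.37e-08), in a contrast that called 58.2% of all genes. Kdm5a also had a negative value there, -0.51 (SE 0.14, adjusted p = 0.000776), and Kdm5b a positive one, 0.43 (SE 0.18, adjusted p = 0.0277), but both stayed under the fold of 1.5. Kdm1a and Kdm5c did not pass, with values of 0.28 (SE 0.26) and -0.23 (SE 0.19). Kdm1b and Rcor1 were too low to enter the PFC fit. When edgeR scaled the sums by library size alone, without TMM factors, Kdm5b was called, at 0.66 (adjusted p = 0.000906).

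In the striatum, where the same contrast set D1, D2 and IN against the 6 non-neuronal types and called 49.5% of all genes, Kdm1b was the member called, at -1.31 (SE 0.33, edgeR adjusted p = 0.000508). It was called under every setting tried, with values from -1.61 to -1.11. The low side was D1 and D2 (3.54 and 1.86 CPM), since IN at 5.89 CPM lay beside Micro (5.86 CPM) and OPC (5.15 CPM). NB, which had the highest Kdm1b mean, entered neither side of the contrast. Kdm5b was higher in neurons by 0.58 (SE 0.13, adjusted p = 0.000108), a fold of 1.4975 that fell just short of 1.5, and it was called with library size alone, at 0.73. Kdm1a had a small positive value of 0.33 (SE 0.15, adjusted p = 0.0493) and Phf21a a small negative one of -0.37 (SE 0.13, adjusted p = 0.00809), both under the fold. Phf21a thus had the same sign in both tissues, with the larger value in the PFC; the difference between these 2 contrasts was not tested.

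Kdm5a was the member called along the oligodendrocyte lineage, and its call depended on the scaling. Between Oligo and OPC its log2 fold change was 0.94 (SE 0.19, edgeR adjusted p = 4.06e-05) in the PFC and 0.72 (SE 0.21, adjusted p = 0.00276) in the striatum, where 45.3% and 43.5% of all genes were called. Between Oligo and NFO it was 0.86 (SE 0.25, adjusted p = 0.00549) and 1.15 (SE 0.40, adjusted p = 0.0257), with 31.5% and 24.1% of all genes called. The CPM themselves told less, since the striatal means were 32.8 ± 4.77 CPM in Oligo and 30.7 ± 7.02 CPM in OPC (SD, n = 4). With library size alone the 4 values were 0.35, 0.04, 0.31 and 0.47, and none passed (adjusted p = 0.111 to 0.899).

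The median of all genes moved with the scaling in these contrasts, from -0.05 to -0.64 between PFC Oligo and OPC and from -0.03 to -0.70 between striatal Oligo and OPC. Relative to that median, Kdm5a stood at 0.99 with TMM factors and at 0.98 without them in the PFC, and at 0.75 and 0.73 in the striatum. Oligo against NFO gave 0.75 and 0.73 in the PFC and 0.92 and 0.88 in the striatum on the same relative scale. Kdm5a thus passed in Oligo on the scale that follows the bulk of genes, and did not pass as a share of all UMIs. Under library size alone, PFC Oligo against OPC also called Kdm5b (-0.71), Phf21a (-0.84) and Kdm1a (-1.39), which had values of -0.14, -0.25 and -0.80 with TMM factors and did not pass. The striatal contrast then called Phf21a (-0.63) and Kdm5c (-0.71), which stood at 0.05 and -0.03 with TMM factors. The split of called genes moved as well, from 1974 higher and 2451 lower to 1090 and 4512 in PFC Oligo against OPC, and from 2328 and 2787 to 1124 and 5380 in the striatum. In Oligo against NFO it moved from 1751 and 1331 to 925 and 2839 in the PFC, and from 1809 and 1026 to 771 and 2405 in the striatum.

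Between NFO and OPC no member was called in either tissue, with 24.9% and 15.2% of all genes called. NFO were few, from 35 to 102 cells a library in the PFC and 22 to 58 in the striatum.

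Among neurons, Kdm1a was lower in PFC IN than in EN by a log2 fold change of -1.07 (SE 0.36, edgeR adjusted p = 0.0177), in a contrast that called 25.8% of all genes. The IN values were 31.4 and 5.98 CPM in WT against 15.5 and 13.2 CPM in Setd1a+/-, so that 1 WT library of IN exceeded every EN library. This rested on 25 UMIs in 48 to 100 cells a library. The call was lost without the second WT library (-0.67, adjusted p = 0.191), without either Setd1a+/- library (adjusted p = 0.0532 and 0.0524), with library size alone (adjusted p = 0.0517) and in DESeq2 (adjusted p = 0.0534). The split of called genes in this contrast moved from 873 higher and 1649 lower to 1119 and 1236 with library size alone.

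In striatal IN against the mean of D1 and D2 MSN, which called 28.8% of all genes, Kdm1b was higher by 1.04 (SE 0.42, edgeR adjusted p = 0.0382). The IN values were 3.03 and 4.94 CPM in WT against 6.16 and 9.43 CPM in Setd1a+/-, overlapping those of D1 (1.47 to 5.99 CPM). The call was lost without the second WT library (adjusted p = 0.105), the first Setd1a+/- library (adjusted p = 0.0548) or the second (adjusted p = 0.256). Kdm5a (-0.43), Kdm5b (-0.40) and Phf21a (-0.46) had adjusted p from 0.0121 to 0.0271 and stayed under the fold of 1.5. The split of called genes moved from 1887 higher and 1501 lower to 2251 and 1166 with library size alone. D2 against D1 called no member, with values from -0.73 (Kdm1b) to 0.05 (Kdm5a) and 2.88% of all genes called.

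**Figure D2:**
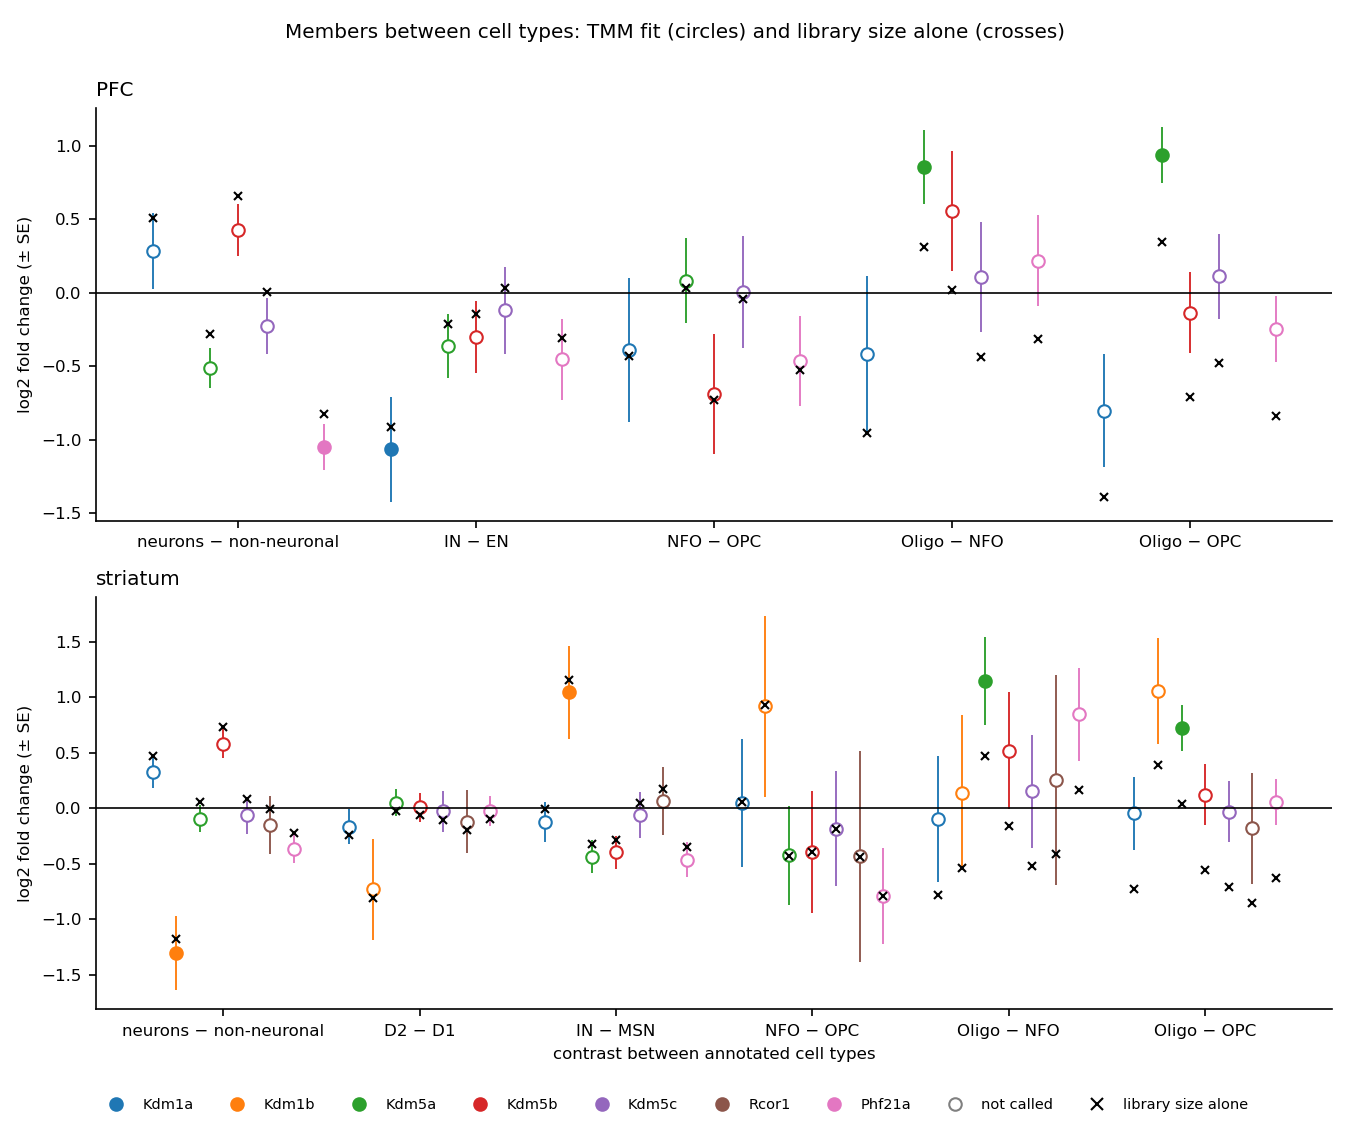
Log2 fold change of each tested gene (vertical axis) in each contrast between annotated cell types (horizontal axis), PFC above and striatum below. Circles with SE bars come from the edgeR fit with TMM factors, filled where called, and crosses from library size alone; Kdm5a falls from 0.94 to 0.35 between PFC Oligo and OPC, while Phf21a stays called in PFC neurons (-1.05 and -0.82).

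The 7 excitatory subtypes of the PFC, named by the authors for cortical depth (superficial layer, SL, or deep layer, DL) and a marker gene, were compared next. Kdm5a means ran from 34.0 CPM in DL-Nnat to 45.8 CPM in DL-Tshz2, a 1.35-fold span, and Kdm5b means from 29.8 CPM in DL-Pou3f1 to 39.1 CPM in DL-Foxp2, a 1.31-fold span. Rcor1 ran from 8.09 CPM in DL-Tshz2 to 16.5 CPM in DL-Etv1, a 2.03-fold span, where the DL-Etv1 libraries held 24.3 and 13.6 CPM in WT against 16.6 and 11.4 CPM in Setd1a+/-. The spans were 2.12-fold for Kdm1a, 1.98-fold for Kdm5c and 1.70-fold for Phf21a, each highest in DL-Pou3f1. No neighbours in the order of any gene were separated. Kdm1b was at 0 UMIs in all 4 libraries of DL-Pou3f1, which held only 7 to 35 cells; 3 counts in such a library would be 14.5 to 58.4 CPM, above its mean in every other subtype. DL-Pou3f1, with under 10 cells in 2 libraries, was left out of the tests.

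In the tests between subtypes, 0 of 12 member tests were called, either between superficial and deep layers (13.2% of all genes called) or between DL-Foxp2 and the other deep-layer subtypes (12.7%). None had an unadjusted p under 0.05 in edgeR, against 34.9% of all tests. DESeq2 called no member. Of all genes it called 672 higher and 462 lower in superficial layers, and 546 higher and 525 lower in DL-Foxp2. The values ran from -0.37 (Rcor1, DL-Foxp2, SE 0.29) to 0.21 (Phf21a, DL-Foxp2, SE 0.19).

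**Figure D3:**
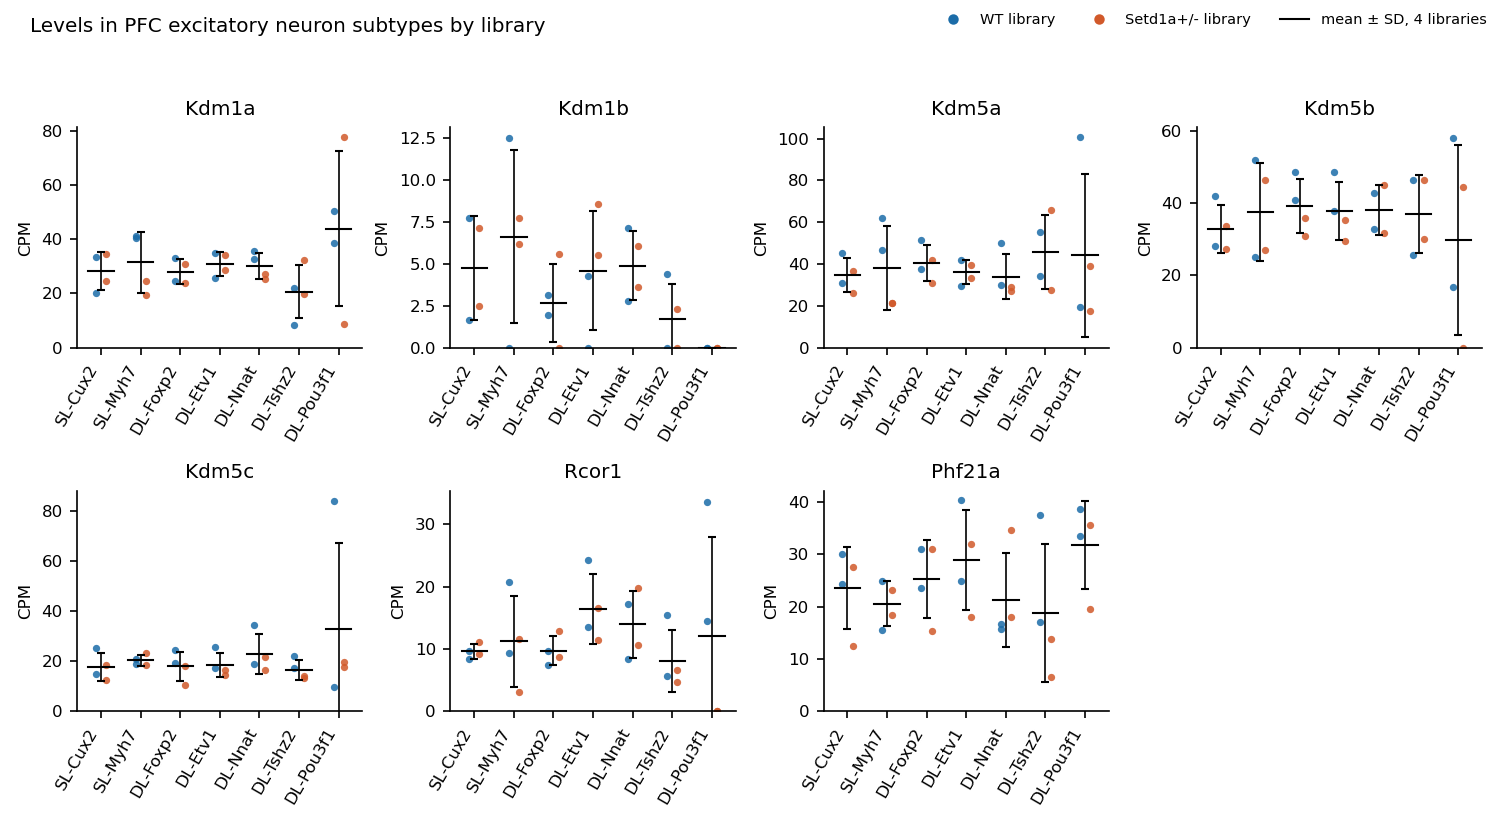
Level of each gene in CPM (vertical axis) in the 7 PFC excitatory subtypes (horizontal axis). Points are libraries, blue for WT and orange for Setd1a+/-, with the mean and SD of 4 libraries, cut at 0; DL-Pou3f1 held 7 to 35 cells a library, and Kdm1b is at 0 in all 4 of its libraries.

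The comparison of Setd1a+/- with WT asks whether the loss of 1 copy of an H3K4 methyltransferase gene is accompanied by a change in the genes that remove the mark. Over all cells of the PFC, Kdm1b was read at 4.88 and 5.16 CPM in WT against 8.39 and 6.17 CPM in Setd1a+/-, and over all cells of the striatum at 4.87 and 4.51 CPM in WT against 7.15 and 5.21 CPM in Setd1a+/-. Kdm5c lay the other way, at 27.2 and 18.5 CPM in WT against 15.2 and 16.2 CPM in Setd1a+/- PFC, and at 19.0 and 15.2 CPM in WT against 15.0 and 13.6 CPM in Setd1a+/- striatum. In both tissues the groups of these 2 genes did not overlap. Of all genes tested, 7.77% lay wholly higher and 8.89% wholly lower in Setd1a+/- PFC, as did 7.05% and 12.1% in the striatum.

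Neither difference passed the test. The log2 fold change of Kdm1b was 0.53 (SE 0.36) in the PFC and 0.43 (SE 0.32) in the striatum, and that of Kdm5c was -0.53 (SE 0.31) and -0.23 (SE 0.24). The other members had values from -0.40 (Kdm5a, PFC, SE 0.31) to 0.32 (Rcor1, striatum, SE 0.29). Of 14 member tests 0 were called and 0 had an unadjusted p under 0.05 in edgeR, while over all genes 0 of 28897 were called (0%) and 0.329% had such a p. DESeq2 called no member test and 3 tests over all genes.

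The PFC libraries differed in makeup. The first WT library of the PFC was the highest of its tissue for 5 of the 7 genes. It was the lowest for Kdm1b (4.88 CPM). EN made up 15.6% of its cells against 31.7% to 44.4% in the other 3 PFC libraries. By UMIs its EN share was 38.4% against 56.9% to 67.3%. Endo made up 22.8% of its cells against 10.4% to 23.8%. Within PFC EN alone that library was also the highest for Kdm5a (50.1 CPM against 30.4 to 35.1), Kdm5b (45.8 against 32.1 to 35.0) and Kdm5c (27.0 against 13.9 to 18.2). The striatal libraries also differed in makeup. The second Setd1a+/- library held 2.69% Oligo and 40.4% D1 MSN, against 12.7% to 24.95% and 15.4% to 31.9% in the other 3, and the first Setd1a+/- library, with 24.95% Oligo and 15.4% D1 MSN, was the highest for 4 of the 7 genes, Kdm1b among them. For Kdm1b the second striatal Setd1a+/- library, at 5.21 CPM, also lay above both WT libraries. The part of this makeup in the values of Kdm1b and Kdm5c was not tested. In sums of a type, fewer expressing cells and less RNA per cell cannot be told apart.

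Within PFC cell types, members had enough counts for 29 tests, from 7 members in EN and Endo to none in Micro. Of these, 0 of 29 were called, as were 0 of 51145 tests over all genes (0%). With the replicate number as a block, no member test and 26 tests over all genes were called. At an unadjusted p under 0.05 stood 3 member tests (10.3%), against 1.70% of all tests. Kdm5b in Astro was read at 24.1 and 14.7 CPM in WT against 68.4 and 43.4 CPM in Setd1a+/-, a log2 fold change of 1.35 (SE 0.58, unadjusted p = 0.036 in edgeR). Kdm1b in Endo was read at 4.51 and 2.65 CPM in WT against 13.5 and 14.5 CPM in Setd1a+/-, a log2 fold change of 1.86 (SE 0.68, unadjusted p = 0.025). Kdm5a in NFO was read at 65.5 and 51.0 CPM in WT against 19.5 and 26.9 CPM in Setd1a+/-, a log2 fold change of -1.40 (SE 0.63, unadjusted p = 0.047).

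In each of these 3 the genotypes did not overlap, but the sums were small, with 38, 35 and 40 UMIs over the 4 libraries, and the adjusted p was above 0.9. Kdm5c had a negative value in 4 of 4 PFC types tested, from -0.63 (Endo) to -0.17 (Oligo), and Kdm5a in 6 of 7, whereas Kdm1b was positive in 2 of 2. In the striatum Kdm5c was negative in 4 and positive in 2 of 6 types, Kdm5a negative in 4 and positive in 5 of 9, and Kdm1b positive in 3 of 3. These types share their libraries and are not independent. Over the 29 tests the genotype groups lay apart in 12, with Setd1a+/- higher in 4 and lower in 8, against 12.0% and 14.3% of all tests.

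Within the subtypes, 0 of 28 member tests were called, as were 0 of 44783 over all genes (0%). Under the replicate block, no member test and 11 tests over all genes were called. Kdm5a in SL-Myh7 was the 1 member test with an unadjusted p under 0.05 (3.57%, against 1.60% of all tests). It was read at 62.1 and 46.8 CPM in WT against 21.6 and 21.3 CPM in Setd1a+/-, a log2 fold change of -1.28 (SE 0.45, unadjusted p = 0.021 in edgeR). In DL-Foxp2 neurons Kdm5c was read at 24.3 and 19.4 CPM in WT against 10.3 and 18.0 CPM in Setd1a+/- (-0.75, SE 0.43), and Kdm5b at 48.6 and 40.9 CPM against 31.0 and 36.0 CPM (-0.43, SE 0.29). Setd1a+/- lay wholly lower in 8 and higher in 1 of the 28 tests, against 13.5% and 13.2% of all tests.

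Within striatal types, where a call needed a fold above 2, 0 of 44 member tests were called, against 4 of 73479 over all genes (0.00544%), all 4 in D2 MSN (0.0397%). All 7 members could be tested in D1 and Endo, 1 in Micro and none in NFO. With the replicate block, no member test and 79 tests over all genes were called. Rcor1 in Endo was read at 18.7 and 17.1 CPM in WT against 25.9 and 38.2 CPM in Setd1a+/-, a log2 fold change of 0.79 (SE 0.32, unadjusted p = 0.0375 in edgeR), the 1 member test at an unadjusted p under 0.05 (2.27%, against 2.62% of all tests). Kdm1b in the same cells was read at 4.23 and 10.5 CPM in WT against 13.8 and 12.7 CPM in Setd1a+/- (0.91, SE 0.50). In D1 MSN, which held 542 UMIs of Kdm5b, that gene differed by 0.00 (SE 0.17), and Phf21a by 0.31 (SE 0.17). Setd1a+/- lay wholly higher in 8 and lower in 3 of the 44 tests, against 12.9% and 18.1% of all tests. The higher ones included Kdm1a and Phf21a in striatal Astro, where 22.9% of all genes lay wholly higher.

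**Figure D4:**
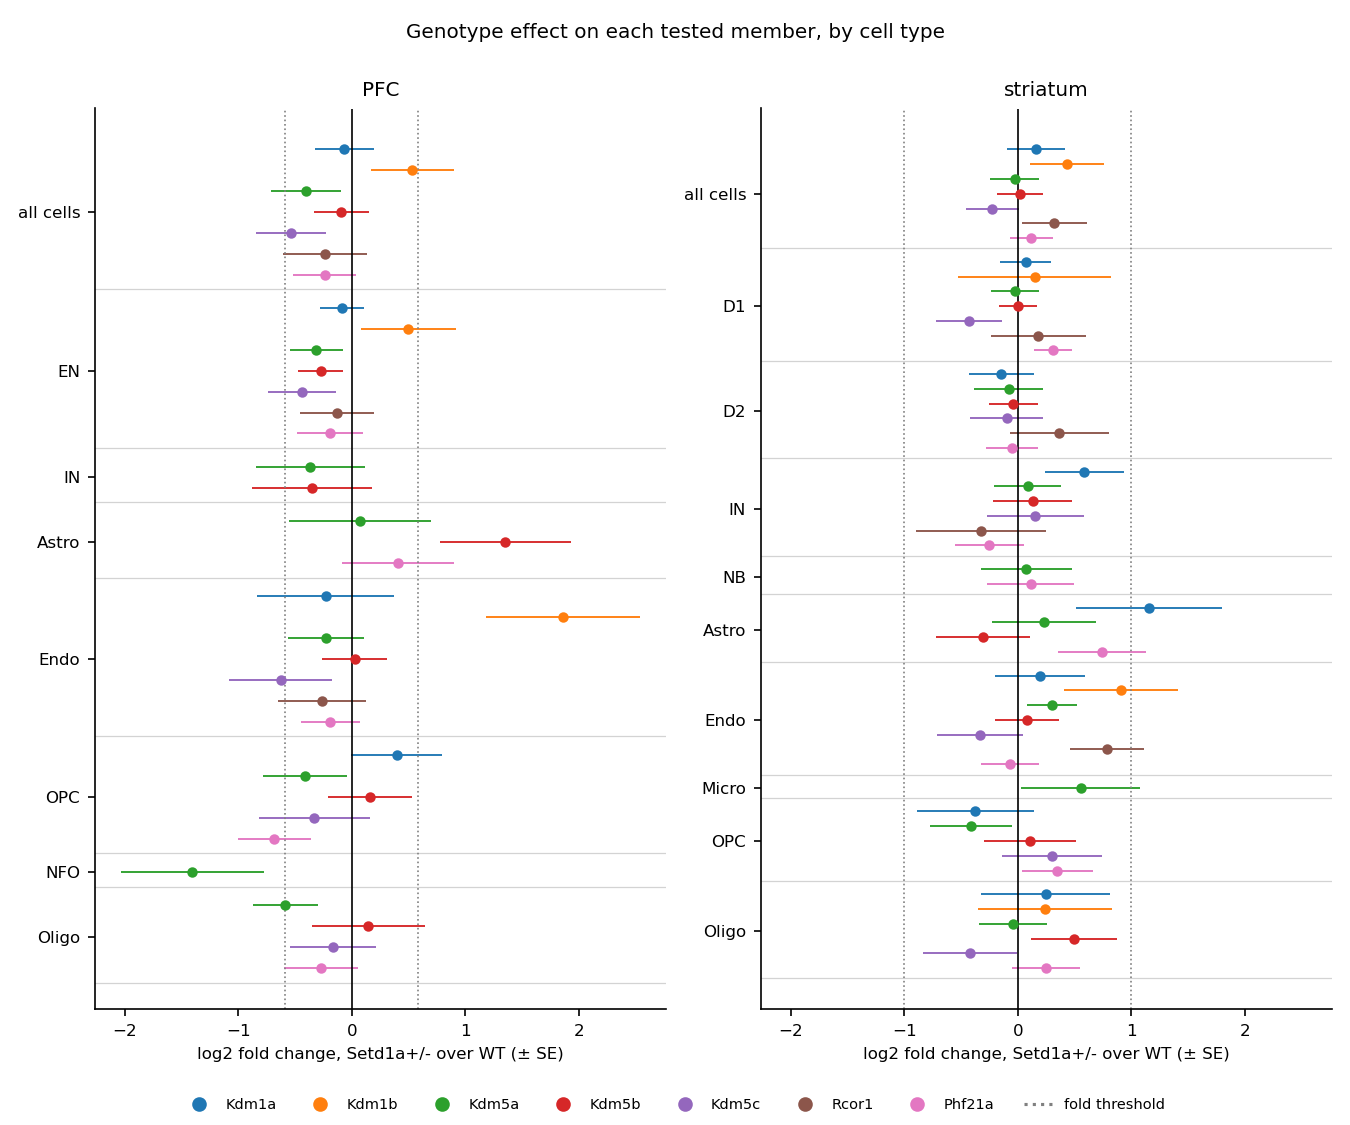
Log2 fold change of Setd1a+/- over WT (horizontal axis) for each gene with enough counts, by cell type (vertical axis), in the PFC and the striatum. Points are edgeR estimates with SE bars and dotted lines mark the folds of 1.5 (PFC) and 2 (striatum); estimates over all cells run from -0.53 to 0.53, and no point was called.

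Between the tissues, the 7 cell types annotated in both were compared with genotype as a covariate, and 0 of 25 member tests were called, against 6.63% of all tests. The share of genes called was 11.8% in IN, 10.4% in Astro, 6.06% in Endo, 21.4% in Micro, 0.158% in OPC, 0.0663% in NFO and 2.7% in Oligo. An unadjusted p under 0.05 was found for 2 (8%), against 20.3% of all tests. Kdm1a in OPC was lower in the striatum, at 15.2, 19.0, 11.6 and 18.5 CPM against 25.5, 20.9, 33.6 and 26.8 CPM in the PFC, a log2 difference of -0.72 (SE 0.30, edgeR adjusted p = 0.323). Kdm5a in Oligo was read at 39.3, 27.9, 32.5 and 31.5 CPM in the striatum and at 72.5, 53.0, 42.1 and 38.6 CPM in the PFC, a difference of -0.59 (SE 0.21, adjusted p = 0.169). For Kdm1a the tissues did not overlap, and for Kdm5a they did, but the share of all genes without overlap between tissues was not computed. DESeq2 called no member. Tissue and library preparation cannot be told apart here.

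The difference of the genotype effect between the tissues was tested as an interaction in the same types, and 0 of 29 member tests and 0 of 49915 over all genes (0%) passed. An unadjusted p under 0.05 was found for 2 (6.90%, against 2.21% of all tests). They were Kdm5b in Astro, with a striatal effect lower than the PFC effect by 1.62 on the log2 scale (SE 0.68), and Phf21a in OPC, with a striatal effect higher by 1.01 (SE 0.46). In OPC, Phf21a had been read at 63.0 and 54.8 CPM in WT against 35.5 and 37.5 CPM in Setd1a+/- PFC, and at 45.7 and 35.1 CPM in WT against 55.3 and 37.0 CPM in Setd1a+/- striatum. Their adjusted p were above 0.99.

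Lists of related genes were read beside the members, namely 12 genes that comprise further partners and recruiters of LSD1, LSD2 and CoREST with Kdm5d, 14 other histone demethylases, and 6 H3K4 methyltransferases. Between Setd1a+/- and WT, 0 of 220 tests of the partners, 0 of 204 of the other demethylases and 0 of 116 of the methyltransferases were called over all cell types, subtypes and sums, where 0% to 0.00544% of all tests were called. Unadjusted p under 0.05 in edgeR numbered 0, 4 and 3, against 0.329% to 2.62% of all tests.

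Between PFC neurons and non-neuronal cells, 3 of 11 tested partners were higher and 3 lower, where 32.6% of all genes were higher and 25.7% lower (median log2 fold change -0.24, against 0.04 for all genes). Those lower included Rest, the repressor of neuronal genes (-3.999, SE 0.34), Hdac1, a histone deacetylase of the complex (-1.90, SE 0.12), and Hmg20b, a DNA-binding subunit (-2.09, SE 0.14), and those higher included Zmym3 (1.47, SE 0.17), a zinc finger subunit. The striatum called 2 higher and 4 lower of 11, where 27.6% of all genes were higher and 22.0% lower. Named by their p, these were Hdac1 (-2.15, SE 0.10) and Hmg20b (-1.58, SE 0.11), both lower, and Zmym3 (1.35, SE 0.10) and the deacetylase gene Hdac2 (1.12, SE 0.09), both higher. The core scaffold gene Rcor1 did not pass in the striatum (-0.15, SE 0.26) and was too low to test in the PFC.

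Of the other demethylases, 0 of 11 were higher and 6 lower in PFC neurons (median -0.70), against the same 32.6% and 25.7% of all genes. They included Jmjd1c (-0.996, SE 0.12) and Kdm3a (-0.95, SE 0.20), relatives that act on H3K9, and Kdm4c (-0.82, SE 0.20). In the striatum 2 of 12 were higher and 2 lower, against 27.6% and 22.0% of all genes. Of the H3K4 methyltransferases, 2 of 4 were higher and 1 lower in PFC neurons and 1 of 6 was higher and 1 lower in striatal neurons, beside the same shares of all genes. Kmt2d was higher in PFC neurons (0.60, SE 0.11), Kmt2a was higher in neurons of both tissues (1.11, SE 0.12, and 0.82, SE 0.08), and Kmt2c was lower in both (-0.72, SE 0.11, and -0.77, SE 0.10), although the PFC call of Kmt2c was lost with library size alone (-0.50) and that of Kmt2d without the first WT library (0.56).

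Along the oligodendrocyte lineage the H3K27 demethylase gene Kdm6b was higher in NFO than in OPC (1.73, SE 0.38, in the PFC and 1.53, SE 0.31, in the striatum) and lower in Oligo than in NFO (-2.81, SE 0.43, and -2.87, SE 0.35). Kdm6a, also an H3K27 demethylase gene of the list, lay the other way between Oligo and NFO (1.59, SE 0.42, and 3.32, SE 0.67). Its values ran from 1.05 with library size alone to 2.59 without the first WT library in the PFC, where the call held in 7 of 8 alternatives and was lost in WT libraries alone, and from 2.50 in WT libraries alone to 3.99 without the second WT library in the striatum, where it held in 8 of 8. In that contrast 1 of 11 other demethylases was called higher and 1 lower in the PFC, where 17.9% and 13.6% of all genes were, as were 2 and 2 of 12 in the striatum, where 15.4% and 8.72% were. Gse1, a partner of the CoREST complex, was also higher in NFO than in OPC in both tissues (2.33, SE 0.45, and 2.02, SE 0.46). The striatal NFO against OPC call of Kdm6b held in 6 of 8 alternatives. Between NFO and OPC, 1 of 11 (PFC) and 1 of 12 (striatum) other demethylases and 3 of 11 and 2 of 11 partners were called higher, with none lower. Of all genes, 9.29% were higher and 15.6% lower there in the PFC, and 5.57% and 9.65% in the striatum. No member was called between the same types.

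The profiles of the members over the 18 combinations of tissue and type were set against each other and against 9541 genes with a mean of at least 10 CPM over these types. Among the members, Kdm1a and Kdm5b had the highest Pearson r (0.70, Spearman rho = 0.53) and the LSD1 partners Rcor1 and Phf21a the highest Spearman rho (0.59, r = 0.53). Near them lay Kdm5a with Phf21a (r = 0.61, rho = 0.53) and Kdm5a with Rcor1 (r = 0.60, rho = 0.45), while Kdm1b and Kdm5b ran against each other (r = -0.40, rho = -0.54). By Pearson r, Rcor1 was most like Palmd (r = 0.92), Brd2 (0.89) and Tgfb1i1 (0.89), and Phf21a most like Gtf3c2 (0.86), Cdc14a (0.85) and Hist1h4i (0.82). Kdm5b was most like Ncoa1 (0.90), Kdm5c most like Gbf1 (0.90), Kdm1a most like the transcript 1700086O06Rik (0.84) and Kdm5a most like Qser1 (0.82). By Spearman rho the first gene was another for each member, namely Arf2 for Rcor1 (0.92), Cdc14a for Phf21a (0.90), Bcl2 for Kdm5b (0.93), Ubxn7 for Kdm5c (0.90), Pogz for Kdm1a (0.83) and Rcsd1 for Kdm5a (0.84), while Palmd stayed among the first 3 for Rcor1 and Gtf3c2 among those for Phf21a. The types of a tissue come from the same 4 libraries and differ in depth, so these values describe the 18 points only. The mean of Kdm1b over the 18 points was under the 10 CPM required of the other genes.

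The share of cells in which a member was seen depended on depth. Cells with at least 1000 UMIs were thinned to 1000 UMIs, and the others were left out of the thinned shares. The mean share over 8 libraries was then 3.92% ± 0.74 (SD, n = 8) for Kdm5a, 3.59% ± 0.39 for Phf21a and 3.01% ± 0.24 for Kdm5b. It was 1.89% ± 0.34 for Kdm1a, 1.70% ± 0.46 for Kdm5c, 1.07% ± 0.24 for Rcor1 and 0.600% ± 0.15 for Kdm1b. Without thinning the shares were 1.92% (Kdm1b) to 12.2% (Kdm5a). In the PFC, EN then had the highest share for all 7 genes, including Rcor1 (8.14%) and Phf21a (15.6%), whereas after thinning Endo was highest for Rcor1 (2.37%), Phf21a (5.12%) and Kdm5a (5.08%), the same type as by CPM.

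RNA outside cells carried the members as well. In droplets of 10 to 100 UMIs, taken as a measure of free RNA, Kdm5a stood at 26.2 CPM against 39.9 CPM in the cells of the same libraries and Phf21a at 23.6 against 34.8 CPM, with the cells higher in 8 of 8 libraries. Kdm5b (26.3 and 33.2 CPM), Kdm5c (12.3 and 17.5 CPM) and Kdm1b (4.28 and 5.79 CPM) were higher in the cells of 7 of 8 libraries, and Rcor1 (7.70 and 11.1 CPM) in 6. Kdm1a was the exception, at 24.6 ± 3.45 CPM in the droplets and 21.0 ± 3.26 CPM in the cells (SD, n = 8), with the cells higher in 1 library. The low side of several differences lay below these droplet means. Of the 18 combinations of tissue and type, the mean CPM was under that of the droplets in 15 for Kdm1a, 8 for Rcor1 (among them PFC Oligo at 4.65 CPM), 7 for Kdm5b (among them striatal Oligo at 15.1 CPM), 4 for Kdm1b (among them D1 and D2 at 3.54 and 1.86 CPM) and 1 each for Kdm5a, Kdm5c and Phf21a (PFC IN at 20.3 CPM). These droplet means pool both tissues, so the counts of types are not matched by tissue. For Phf21a the droplets ran from 18.3 to 23.6 CPM in the PFC libraries and from 25.0 to 28.3 CPM in the striatal ones. The PFC IN mean of Phf21a lay within the PFC span, and its EN mean, at 24.5 CPM, lay above it. The part of free RNA in these levels was not tested.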

How the data were processed

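Cells of 8 libraries were profiled by droplet single-cell RNA-seq. The authors made UMI counts per gene and barcode with Cell Ranger 3.0.2 against mm10 and deposited them raw, and clustered and annotated cells with Seurat 3.2.0; doublet removal is not stated in the sources used here, and no caller was run. Here the deposited counts of annotated cells (at least 800 genes each) were summed per library and cell type. edgeR 4.0.16 (R 4.3.3) fitted quasi-likelihood models with TMM factors and filterByExpr (minimum count 10) over all genes in types with at least 10 cells in every library. Adjusted p are Benjamini-Hochberg values over all genes of a fit and contrast, and SE is the log2 fold change divided by the root of F. A call needed an adjusted p under 0.05 and a fold above 1.5 (above 2 for genotype in the striatum, no fold for the interaction), after the study's thresholds. The report names the members, Setd1a, Kdm5d, up to 4 genes of smallest p per list and contrast, and 3 genes most like each member (log2 of CPM plus 1). The members and lists were chosen with earlier results of these data known. The models were also run on simulated counts with the same dispersion for all genes and no shared replicate effect. These do not mirror the spread of the libraries here.

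In sums over all annotated cells, which also differ in makeup, replicates of a group differed beyond counting noise (chi-square 16.6 to 73.0 per gene). The p-values of contrasts between types rest on how these varied from library to library. Those of the other main fits rest on the spread between pooled libraries. In the genotype fits this spread includes any replicate difference that both genotypes share. The genotype fits put 0.329% to 2.62% of tests at an unadjusted p under 0.05 in edgeR, below the threshold itself, so they were conservative. By the study's methods, a replicate comprised both genotypes, with 1 library each. The deviations of same-numbered libraries correlated at 0.47 (PFC) and 0.56 (striatum) over all cells and at 0.097 to 0.60 within types, and they were treated as paired in an alternative fit. Other alternatives were DESeq2 1.42.0, library size alone, no count filter, WT libraries alone and each library left out. Tables were made with Python 3.11.15, pandas 2.3.3 and numpy 2.4.6. Gene positions come from the GENCODE annotation of GRCm38, the assembly behind mm10.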

Additional observations from a re-analysis of the deposited data

How the results depend on the processing

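The genotype, tissue and interaction tests called no member under any alternative, including the fits with the replicate block. Counts over all genes were less stable. Genotype calls in PFC types went from 0 to 26 with the replicate block, 1 in DESeq2, 63 without the count filter and 25 to 122 with a library left out. In the subtypes they went from 0 to 11 with the block, 28 without the filter and 7 to 306 with a library left out, and in striatal types from 4 to 79, 110 and 67 to 402. Over all cells they went from 0 to 3 in DESeq2 and 0 to 606 with a library left out. A library left out leaves 1 in its group, which is assumed to vary like the others. Tissue calls went from 2837 to 6957 without the filter, 1201 in WT alone, 561 in Setd1a+/- alone and 1638 to 3989 with a library left out, and interaction calls from 0 to 26 without the filter and 0 to 4 with a library left out. The cause was not tested. Contrasts called 3 to 4 of the member tests in each tissue with a library left out, against 4 in the main fits. Calls over all genes, summed over contrasts, then numbered 15856 to 17598 in the PFC, 16662 to 19204 in the striatum and 2102 to 2250 between subtypes. In the main fits they numbered 18152, 19297 and 2288, which is 37.2%, 27.3% and 13% of tests.

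The 28 member values at an unadjusted p under 0.05 were recomputed under 243 alternatives, of which all 243 kept their direction and 211 their side of the threshold, with 20 calls lost and 12 gained. Beside the losses given with each contrast, the Oligo against NFO call of Kdm5a was lost in PFC WT libraries alone (adjusted p = 0.149) and without the first Setd1a+/- library (0.0769), and in the striatum in DESeq2 (0.118) and without either WT library (0.194 and 0.0876). The striatal Oligo against OPC call of Kdm5a was lost in WT libraries alone (0.0532), as were those of Kdm1a in PFC IN (0.148) and Kdm1b in striatal IN (0.424). Beside those with library size alone, calls were gained by Kdm5b in neurons in WT libraries alone (0.67 in the PFC and 0.62 in the striatum) and, in the striatum, without the first WT (0.60) or first Setd1a+/- library (0.73), by Kdm5b in striatal IN without the second Setd1a+/- library (-0.66), by Kdm5a in PFC neurons (-0.63) without the first Setd1a+/- library, and in Oligo against OPC by Kdm1a in the PFC (-0.997) and Kdm1b in the striatum (1.77) without the second WT library and by Kdm1b without the filter (1.11). In DESeq2 the split of calls also moved, to 1063 higher and 1212 lower in PFC IN against EN, 2978 and 3638 (from 3244 and 2586) in striatal neurons, 802 and 828 (from 655 and 1135) in striatal NFO against OPC and 1218 and 1470 in striatal Oligo against NFO.

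The shares of cells depended on thinning and on the cells kept. At 2000 UMIs only cells with at least 2000 UMIs were kept. OPC had medians of 1351 to 1919 UMIs per cell in the 8 libraries, so most of them were left out there. For Kdm1a the share was 6.74% unthinned and 4.02% at 2000 UMIs, for Kdm1b 1.92% and 1.13%, for Kdm5a 12.2% and 7.74%, for Kdm5b 10.2% and 6.29%, for Kdm5c 5.68% and 3.31%, for Rcor1 3.65% and 2.20%, and for Phf21a 10.7% and 6.69%. Depth limits the rarer types, where several members rest on under 20 UMIs in all 4 libraries together.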
